A study of Mus musculus with 12 samples.

Results

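The comparison described here is that of MC38 tumours from mice given a doxorubicin prodrug together with an antibody-catalyst conjugate (R+D) with MC38 tumours from mice given the prodrug by itself (DPD). Libraries were chosen by their agent label: 2 libraries carry R+D and 2 carry DPD, which makes 4 of the 12 RNA-seq libraries of the series. MC38 is a colon carcinoma line of C57BL/6 mice. It was grown under the skin of the left flank of C57BL/6J mice aged 8 weeks, and tumours were taken on day 20. R+D mice received the conjugate, Ru-PD-L1, and 6 hours later 14 µg of DPD by peritumoral injection. DPD mice received 14 µg of DPD (0.56 mg/kg) into the peritoneum. Dosing ran every 3 days from day 9 in R+D and DPD mice alike, and in the other groups of the series. The dose of Ru-PD-L1 in the combination is not stated, and alone it was 20 µg (0.80 mg/kg). The conjugate and the route of the prodrug therefore changed together, and their contributions cannot be told apart.

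A further 2 pairs of groups, which share no library with R+D or DPD, serve for comparison. R+X mice received Ru-PD-L1 and then 14 µg of DOX (doxorubicin) beside the tumour, and DOX mice 14 µg of DOX into the peritoneum, so the route changed there as well. RP mice received Ru-PD-L1 alone and Ctrl mice PBS, both into the peritoneum. Each group holds 2 libraries. Nothing in the labels says whether both libraries of a group are from different animals. Each p-value therefore reflects variation among these samples only, and that variation could be technical.

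PD-L1 is a surface protein of tumour and myeloid cells that restrains T cells through the receptor PD-1. Antibodies that block it can release T cells, which kill with perforin and granzymes and secrete interferon gamma. Interferon gamma induces guanylate-binding proteins, immunity-related GTPases, CXCR3 chemokines and antigen presentation. The type I interferons induce antiviral genes, many of which interferon gamma induces too. Doxorubicin intercalates into DNA and traps topoisomerase II on it, which breaks DNA and can activate p53. A prodrug is a masked form that is converted to the active drug, and the series title names the conjugate as a catalyst carrier directed to PD-L1.

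The R+D libraries held 52183487 and 46547114 counts and the DPD libraries 55243633 and 48579061 counts. Levels are given in CPM, with library sizes adjusted by TMM. Pearson's r of log2 CPM was 0.9717 between the R+D libraries and 0.9763 between the DPD libraries, and 0.9708 to 0.9856 between libraries of the 2 groups, so the groups did not stand apart as wholes. R+D replicate 1 was closest to DPD replicate 2 of all libraries, and R+D replicate 2 to RP replicate 2. R+D replicate 2 carried skeletal muscle RNA: the 20 tested muscle genes summed to 37.1 and 414 CPM in R+D tumours, against 21.9 and 25.5 CPM in DPD tumours. Hair and skin genes summed to 336 and 623 CPM in R+D tumours and to 488 and 386 CPM in DPD tumours. Of the epithelial markers that define colon carcinoma cells, Epcam was at 0.11 and 1.3 CPM in R+D tumours and at 0.55 and 0.29 CPM in DPD tumours, and Krt8 and Krt18 were too low to test. Other epithelial genes were expressed: Cdh1, which encodes E-cadherin, was at 10.98 and 15.3 CPM in R+D tumours and at 15.4 and 14.3 CPM in DPD tumours, and Lgals4, a galectin of gut epithelium, at 9.80 and 11.9 CPM in R+D tumours and at 11.4 and 10.2 CPM in DPD tumours. The 9 tested epithelial genes summed to 24.4 and 38.3 CPM in R+D tumours, against 30.8 and 27.5 CPM in DPD tumours. In such bulk tissue, fewer cells of a type and less RNA per cell cannot be told apart.

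No gene passed the test between R+D and DPD tumours. Of 19525 genes tested with edgeR's quasi-likelihood test, 0 (0%) had an adjusted p under 0.05, and the smallest was 0.581. At an unadjusted p under 0.05 there were 450 genes (2.3%), 296 (1.52%) higher and 154 (0.789%) lower in R+D, where 976 would be met by chance. DESeq2 called 6 genes and limma-voom 0. The values below are therefore descriptions: edgeR's test over all libraries called none of the genes, and the DESeq2 calls are given where their genes are described. Both R+D libraries lay above both DPD libraries for 2825 genes (14.5%) and below both for 2308 genes (11.8%), and these shares are the background for the counts of the gene lists below. With 2 libraries a group, an exact permutation test of a single gene cannot go below p = 0.333. The median log2 fold change of all genes was 0.01, and the 5% and 95% quantiles were −0.61 and 1.02.

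The smallest p among named genes with non-overlapping libraries belonged to Gja4, which encodes connexin 37, a gap junction protein of arterial endothelium (chr4:127311420-127314039, GRCm38.p6). Gja4 stood at 23.3 and 28.2 CPM in R+D tumours, against 9.15 and 12.8 CPM in DPD tumours, or 25.7 ± 3.46 CPM and 11 ± 2.59 CPM (SD, n = 2 each). Its log2 fold change was 1.23 ± 0.27 (SE), with an adjusted p of 1 by edgeR. Gja4 was also at 40.2 and 31.7 CPM in RP tumours, against 7.57 and 7.13 CPM in Ctrl tumours, and at 10.1 and 6.56 CPM in R+X tumours, against 5.95 and 4.19 CPM in DOX tumours. All 3 pairs had the conjugate libraries on top. Between RP and Ctrl it was 1 of 3 genes called (0.0154% of those tested; adjusted p = 0.0458 by edgeR). Gja5, the connexin 40 gene of the same endothelium, was at 1.40 and 4.17 CPM in R+D tumours and at 0.625 and 1.36 CPM in DPD tumours.

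Pidd1 encodes the scaffold of the PIDDosome, the complex that activates caspase-2, and lies on chr7:141438113-141447565. It was at 29.0 and 27.6 CPM in R+D tumours, against 17.2 and 19.5 CPM in DPD tumours (log2 fold change 0.62 ± 0.16, edgeR adjusted p = 1). In RP tumours it was at 25.2 and 23.8 CPM, and in the other 3 groups it stayed between 14.0 and 19.0 CPM, so the R+D libraries were the highest of the 12. Ankle1, a DNA-cleaving enzyme with ankyrin repeats (chr8:71405986-71410728), was at 31.4 and 29.6 CPM in R+D tumours and at 14.8 and 21.0 CPM in DPD tumours, a log2 fold change of 0.77 ± 0.21. Its RP libraries held 35.2 and 28.3 CPM, against 16 and 14 CPM in Ctrl libraries.

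The other 7 leading genes on the higher side are known from skeletal muscle. Acta1, skeletal muscle actin, was at 10.3 and 106 CPM in R+D tumours, against 5.13 and 6.23 CPM in DPD tumours. Atp2a1, the calcium pump of fast fibres, was at 2.15 and 48.8 CPM in R+D tumours and at 1.67 and 1.81 CPM in DPD tumours. Casq1 (calsequestrin), Ldb3 (a Z-disc protein), Ryr1 (the calcium release channel), Tnnc2 (fast troponin C) and Eef1a2 (a translation elongation factor of muscle and neurons) had log2 fold changes of 3.82 ± 0.93, 2.50 ± 0.61, 2.29 ± 0.60, 2.63 ± 0.70 and 3.90 ± 1.08. In each of them R+D replicate 2 held several times the level of R+D replicate 1. DESeq2 called Casq1 (adjusted p = 0.0368) and Actc1 (adjusted p = 0.0282), the cardiac actin gene, which was at 0.294 and 2.05 CPM in R+D tumours and at 0 CPM in both DPD tumours. Of the 20 tested muscle genes, 15 had both R+D libraries above both DPD libraries, with a median log2 fold change of 3.09, which was 0.69 without R+D replicate 2. The muscle sum was also high in RP tumours, at 314 and 119 CPM, and between 16.4 and 34.9 CPM in the Ctrl, R+X and DOX libraries.

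**Figure D1:**
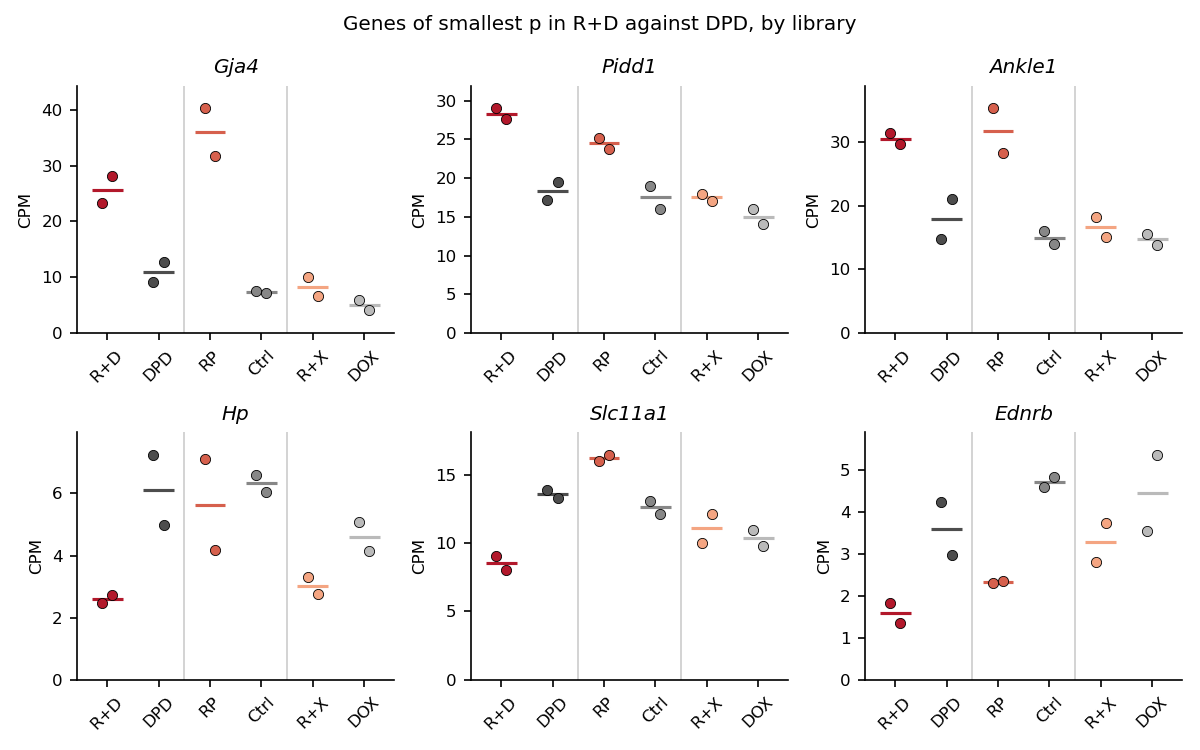
Level in CPM (vertical axis, from 0) of 6 genes of small p in each of the 12 libraries (points) by group (horizontal axis), with the group mean as a bar. In the top row the R+D points lie above the DPD points, and in the bottom row below them: Gja4 at 23.3 and 28.2 CPM in R+D against 9.15 and 12.8 CPM in DPD, and Hp at 2.46 and 2.73 CPM in R+D against 7.24 and 4.97 CPM in DPD.

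The 10 leading genes on the lower side were led by haptoglobin and a phagosomal metal transporter. Hp, haptoglobin, the plasma protein that binds free haemoglobin (chr8:109575128-109579172), was at 2.46 and 2.73 CPM in R+D tumours, against 7.24 and 4.97 CPM in DPD tumours (log2 fold change −1.24 ± 0.30, edgeR adjusted p = 1). Slc11a1, the metal transporter of macrophage phagosomes (chr1:74375014-74386057), was at 9.03 and 8.06 CPM in R+D tumours, against 13.9 and 13.4 CPM in DPD tumours (−0.67 ± 0.17). The R+D libraries were the lowest of the 12 for both genes.

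Ednrb, the endothelin receptor B, was at 1.84 and 1.34 CPM in R+D tumours, against 4.24 and 2.97 CPM in DPD tumours. Ly96, the MD-2 coreceptor of TLR4, was at 2.07 and 2.62 CPM in R+D tumours and at 4.94 and 3.91 CPM in DPD tumours. Cxcr4, the receptor of the chemokine CXCL12, was at 7.91 and 6.86 CPM in R+D tumours and at 12.5 and 9.88 CPM in DPD tumours. The 3 genes had log2 fold changes of −1.18 ± 0.31, −0.91 ± 0.28 and −0.60 ± 0.20. Setdb2, a histone methyltransferase, was at 3.38 and 3.84 CPM in R+D tumours, against 7.20 and 8.96 CPM in DPD tumours. The remaining genes of this side were Depp1 (−1.51 ± 0.43), Trp53i11 (−0.57 ± 0.19), the glucuronosyltransferase gene Ugt1a6b (−1.88 ± 0.57) and the acyl-CoA thioesterase gene Acot2 (−0.63 ± 0.20). Ugt1a6b shares exons with its Ugt1a neighbours and Acot2 has close copies beside it, so their counts are uncertain.

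Genes induced by interferon gamma lay mostly on the higher side in R+D tumours. Of 26 tested members, 14 (53.8%) had both R+D libraries above both DPD libraries, against 14.5% of all genes, and 0 had both below. The median log2 fold change was 0.39. It was 0.28 without R+D replicate 2, 0.45 without R+D replicate 1, 0.21 without DPD replicate 1 and 0.56 without DPD replicate 2. R+D replicate 1, the library with little muscle RNA, was above both DPD libraries for 18 of the 26 genes, against 29.5% of all genes. The 26 genes summed to 2890 and 3320 CPM in R+D tumours, against 2140 and 2640 CPM in DPD tumours.

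Serpina3g, a serine protease inhibitor of activated T cells and macrophages, had the smallest p of the list. It was at 102 and 94.7 CPM in R+D tumours, against 70.2 and 69.0 CPM in DPD tumours (0.50 ± 0.16, edgeR adjusted p = 1). Its near-identical neighbours in the Serpina3 cluster make the count uncertain. Gbp2, a guanylate-binding protein that acts on intracellular pathogens, was at 505 and 562 CPM in R+D tumours, against 324 and 400 CPM in DPD tumours (0.56 ± 0.24). Igtp, an immunity-related GTPase, was at 91.9 and 141 CPM in R+D tumours and at 76.4 and 90.1 CPM in DPD tumours. Ido1, which breaks down tryptophan, was at 9.73 and 4.05 CPM in R+D tumours and at 2.79 and 4.46 CPM in DPD tumours, so its libraries overlapped.

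The CXCR3 ligand genes Cxcl9 and Cxcl10 did not move together. Cxcl10 was at 126 and 94.5 CPM in R+D tumours and at 91.5 and 83.7 CPM in DPD tumours, whereas Cxcl9 was at 113 and 48.6 CPM in R+D tumours and at 79.3 and 77.6 CPM in DPD tumours. The 2 R+D libraries thus lay on either side of the DPD libraries for Cxcl9. Ifng itself, the interferon gamma gene, was at 0.918 and 1.9 CPM in R+D tumours and at 0.276 and 1.22 CPM in DPD tumours.

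The antiviral genes of the type I interferon response showed the opposite order. Of 25 tested members, 12 (48%) had both R+D libraries below both DPD libraries, against 11.8% of all genes, and 1, Zbp1, had both above. The median log2 fold change was −0.48, and −0.18 without R+D replicate 2. R+D replicate 1 was below both DPD libraries for 13 of the 25 genes and above both for 4, where all genes gave 27.3% and 29.5%. The 25 genes summed to 765 and 631 CPM in R+D tumours, against 849 and 812 CPM in DPD tumours.

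Usp18, the protease that removes ISG15 and restrains the type I receptor, was at 11.8 and 5.62 CPM in R+D tumours, against 19.7 and 13.5 CPM in DPD tumours (−0.93 ± 0.33, edgeR adjusted p = 1). Oas1a, an oligoadenylate synthetase that senses double-stranded RNA, was at 21.8 and 18.6 CPM in R+D tumours, against 32.1 and 26.1 CPM in DPD tumours (−0.52 ± 0.19). Irf7, the factor that amplifies type I interferon genes, was at 32.6 and 21.2 CPM in R+D tumours and at 45.6 and 39.2 CPM in DPD tumours (−0.66 ± 0.28). Dhx58, which encodes the RNA sensor LGP2, was at 15.5 and 10.9 CPM in R+D tumours and at 17.4 and 17.9 CPM in DPD tumours. R+D replicate 2 was the lower library of its group for all 4 genes. Zbp1, a sensor of Z-form nucleic acids that both interferon types induce, was at 50.3 and 58.7 CPM in R+D tumours and at 39.8 and 46.2 CPM in DPD tumours.

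**Figure D2:**
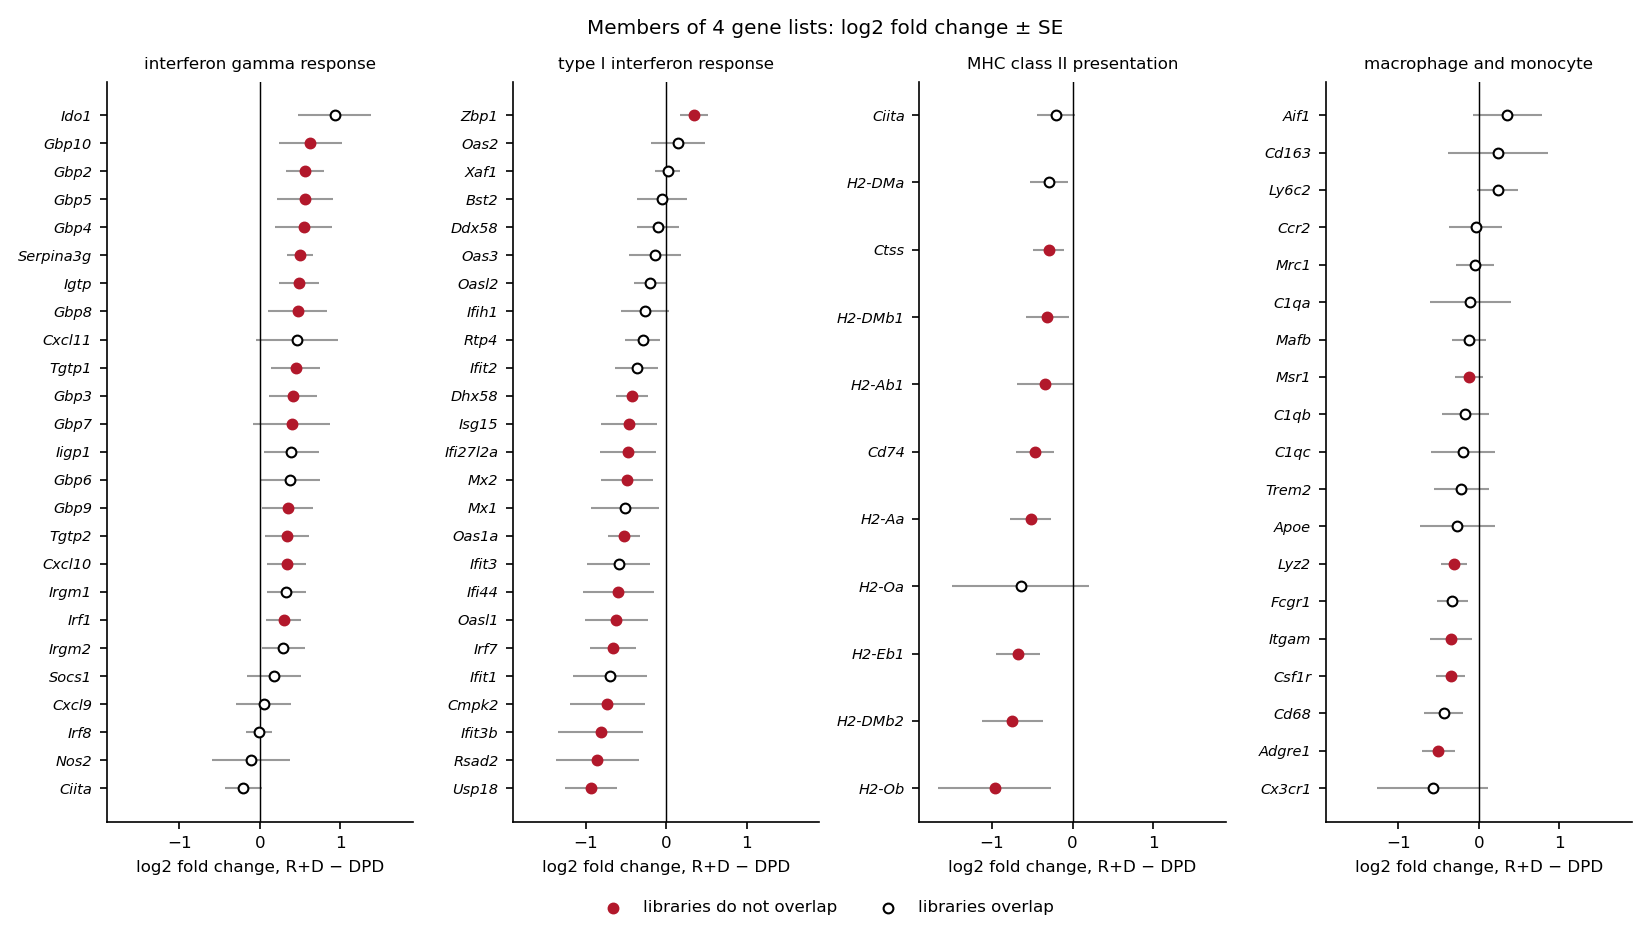
Log2 fold change of R+D minus DPD (horizontal axis, points, with ± SE as lines) for tested members of 4 gene lists (1 interferon gamma gene is not drawn), filled where both R+D libraries lie on one side of both DPD libraries. Most interferon gamma genes lie right of 0 (median 0.39), and most type I interferon, MHC class II and macrophage genes left of it (medians −0.48, −0.46 and −0.20).

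Both interferon lists contain promoters with the interferon-stimulated response element, a sequence bound by IRF complexes, so members of each are shown because their levels ran in opposite orders. A core of it is GAAA and again GAAA with any 2 bases between them, searched on both strands (TTTC and TTTC on the other). It was found within the 250 bases before the start of 454 of 13660 tested genes with a RefSeq promoter (3.32%). It was found in 11 of 15 interferon gamma genes and 8 of 17 type I genes with a promoter. Only 15 of 26 and 17 of 25 members had a promoter, too few for these shares to stand for the lists. A match is a description and not a bound site. The lines give RefSeq GRCm38.p6 sequence 5′ to 3′ on the strand of the gene, with the match in capitals.
Gbp2: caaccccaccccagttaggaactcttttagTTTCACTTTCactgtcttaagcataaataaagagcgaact
Igtp: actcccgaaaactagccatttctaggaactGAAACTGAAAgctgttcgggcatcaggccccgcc
Gbp5: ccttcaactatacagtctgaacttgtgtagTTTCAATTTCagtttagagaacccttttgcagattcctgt
Oas1a: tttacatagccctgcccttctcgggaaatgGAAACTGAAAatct
Rsad2: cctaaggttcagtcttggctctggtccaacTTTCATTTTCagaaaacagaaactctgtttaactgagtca
Ifit3b: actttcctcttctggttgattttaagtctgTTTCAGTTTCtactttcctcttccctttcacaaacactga

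The Gbp2 window is chr3:142620574-142620643 on the plus strand, that of Igtp chr11:58199492-58199555 on the plus strand, and that of Gbp5 chr3:142496739-142496808 on the plus strand. The Oas1a window is chr5:120907526-120907569 on the minus strand, that of Rsad2 chr12:26456533-26456602 on the minus strand, and that of Ifit3b chr19:34607773-34607842 on the plus strand. The match begins 59 bases before the start of Gbp2, 34 before that of Igtp and 165 before that of Gbp5, and 14, 120 and 154 before those of Oas1a, Rsad2 and Ifit3b. The RefSeq span of Oas1a reaches to chr5:120907544, so its match lies inside that span and precedes only the start used here. Igtp and Oas1a hold the same 10 letters in their matches. Igtp had both R+D libraries above both DPD libraries, and Oas1a both below. All genes of this display, Igtp and Oas1a included, were chosen by their p between R+D and DPD among members with a match. Gbp5 was at 43.5 and 55.3 CPM in R+D tumours and at 26.4 and 40.7 CPM in DPD tumours. Rsad2 was at 15.8 and 4.81 CPM in R+D tumours, against 19.5 and 17.8 CPM in DPD tumours, and Ifit3b at 9.77 and 2.73 CPM in R+D tumours, against 11.3 and 10.7 CPM in DPD tumours.

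Genes of cytotoxic lymphocytes had positive fold changes that came mostly from R+D replicate 2. All 21 tested members had a positive log2 fold change, with a median of 0.70, and 8 (38.1%) had both R+D libraries above both DPD libraries, against 14.5% of all genes. The median was 0.14 without R+D replicate 2, 1.06 without R+D replicate 1 and 0.42 without DPD replicate 1. R+D replicate 1 was above both DPD libraries for 9 of the 21 genes and below both for 0. The list summed to 188 and 363 CPM in R+D tumours, against 148 and 186 CPM in DPD tumours. R+D replicate 2, at 363 CPM, was also the library with 414 CPM of muscle genes, and with the muscle level as a covariate the median was 0.12.

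Prf1, which encodes perforin, the pore of killer cells, was at 14.8 and 28.4 CPM in R+D tumours, against 10.3 and 12.7 CPM in DPD tumours (0.91 ± 0.38, edgeR adjusted p = 1). Gzmb, granzyme B, was at 15 and 25.8 CPM in R+D tumours, against 9.87 and 14.6 CPM in DPD tumours (0.74 ± 0.38). Gzmd, granzyme D, was at 26.4 and 58.0 CPM in R+D tumours, against 20.6 and 26.1 CPM in DPD tumours. Gzmk, granzyme K, had 0.532 and 0.95 CPM in R+D tumours and 0.147 and 0.177 CPM in DPD tumours. The groups did not overlap for any of the 4, but R+D replicate 1 lay within 1 CPM of the higher DPD library for Gzmb and Gzmd.

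T cell genes had a positive median of 0.41, but 3 of 18 (16.7%) did not overlap, close to the background of 14.5%, and the median was −0.01 without R+D replicate 2 and 0.81 without R+D replicate 1. Cd8a, the coreceptor of killer T cells, was at 7.66 and 13.8 CPM in R+D tumours and at 6.84 and 8.43 CPM in DPD tumours. Cd4, that of helper T cells, was at 1.3 and 3.14 CPM in R+D tumours and at 1.56 and 1.87 CPM in DPD tumours. Cd3g, a subunit of the T cell receptor complex, was at 3.65 and 5.78 CPM in R+D tumours, against 2.46 and 3.69 CPM in DPD tumours. Zap70, the kinase that this complex recruits, was at 3.75 and 5.45 CPM in R+D tumours, against 2.72 and 3.10 CPM in DPD tumours. Of these 4 genes the libraries were apart for Zap70 only. Regulatory T cell genes had 3 of 8 (37.5%) apart on the higher side and 0 on the lower. Their median was 0.30, or −0.04 without DPD replicate 1. Among them, Foxp3, the lineage factor, was at 2.04 and 1.28 CPM in R+D tumours and at 1.32 and 3.44 CPM in DPD tumours. Tnfrsf4, the costimulatory receptor OX40, was at 4.31 and 6.69 CPM in R+D tumours and at 3.58 and 3.81 CPM in DPD tumours.

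None of the 12 tested genes of the PD-L1 axis had libraries that were apart, and their median log2 fold change was 0.13, or −0.07 to 0.36 with 1 library left out. Cd274, which encodes PD-L1, the target of the conjugate, was at 31.6 and 36.2 CPM in R+D tumours, against 27.8 and 34.9 CPM in DPD tumours (0.11 ± 0.27). Pdcd1, its receptor PD-1, was at 3.43 and 4.32 CPM in R+D tumours and at 3.09 and 3.81 CPM in DPD tumours. Lag3, another inhibitory receptor, was at 8.68 and 16.8 CPM in R+D tumours, against 9.67 and 9.88 CPM in DPD tumours. In RP tumours Cd274 reached 46.0 and 70.9 CPM, against 21.4 and 19.3 CPM in Ctrl tumours.

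Among chemokines, Ccl4, an inflammatory CC chemokine, was at 3.47 and 7.35 CPM in R+D tumours, against 2.77 and 2.99 CPM in DPD tumours (0.91 ± 0.35). Cx3cl1, fractalkine, the ligand of CX3CR1, was at 63.3 and 44.4 CPM in R+D tumours, against 41.9 and 37.0 CPM in DPD tumours (0.45 ± 0.18). The chemokine list as a whole had 3 members (12.5%) apart on the higher side and 2 (8.33%) on the lower side out of 24 tested. Neither share exceeded that of all genes, 14.5% and 11.8%. Of the 24 members, 14 were positive and 10 negative. Their median was 0.09, or −0.13 without R+D replicate 2.

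**Figure D3:**
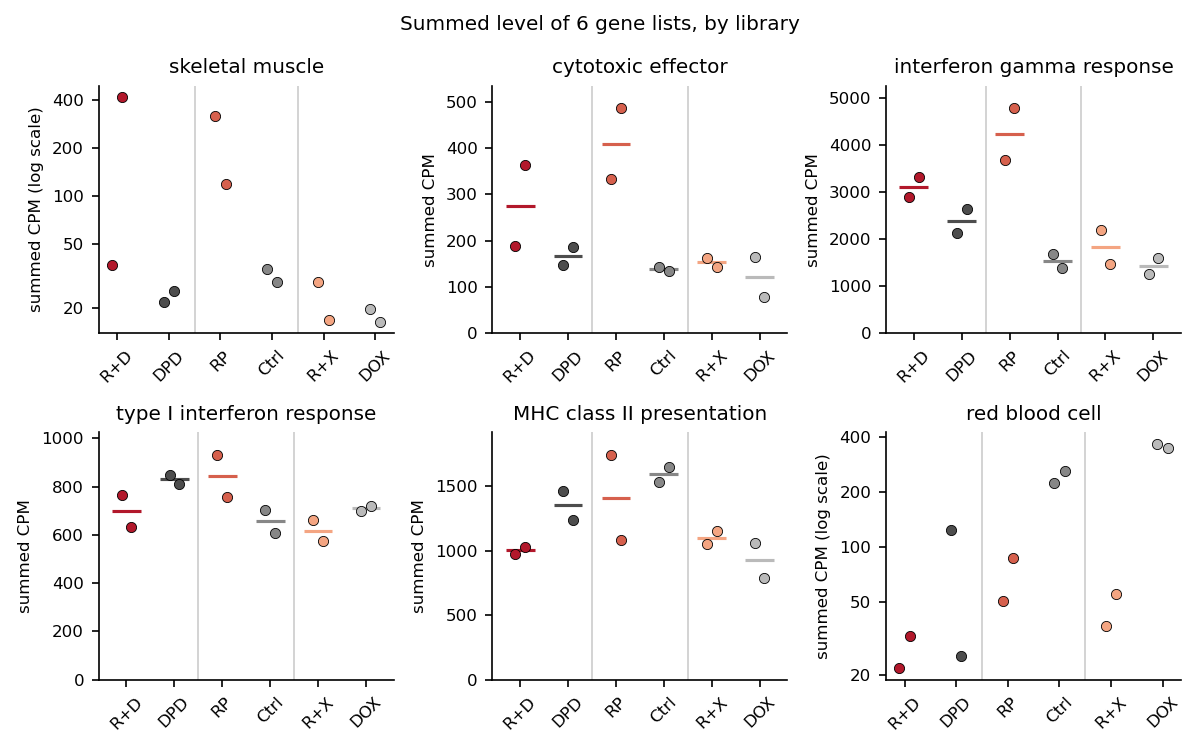
Summed CPM of 6 gene lists (vertical axis, on a log scale for muscle and red blood cell genes) in each of the 12 libraries (points) by group (horizontal axis), with the group mean as a bar on the linear axes. R+D replicate 2 holds 414 CPM of muscle genes and 363 CPM of cytotoxic genes, while interferon gamma genes (2890 and 3320 CPM in R+D, 2140 and 2640 CPM in DPD) and MHC class II genes (972 and 1030 CPM in R+D, 1460 and 1240 CPM in DPD) are apart in both R+D libraries.

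MHC class II genes, which present peptides to CD4 T cells, had, of the 43 lists, the largest share of members on the lower side. All 11 tested members had a negative log2 fold change, with a median of −0.46, and 8 (72.7%) had both R+D libraries below both DPD libraries, against 11.8% of all genes. The median was −0.56 without R+D replicate 2, −0.31 without DPD replicate 1 and −0.77 with the muscle level as a covariate. The part of muscle RNA in this difference was not tested. R+D replicate 1 was below both DPD libraries for 9 of the 11 genes. The list summed to 972 and 1030 CPM in R+D tumours, against 1460 and 1240 CPM in DPD tumours.

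H2-Eb1, a class II beta chain, was at 64.4 and 58.1 CPM in R+D tumours, against 105 and 90.5 CPM in DPD tumours (−0.67 ± 0.27, edgeR adjusted p = 1). H2-Aa, an alpha chain, was at 73.7 and 78.4 CPM in R+D tumours, against 119 and 98.5 CPM in DPD tumours. Cd74, the invariant chain that guides class II molecules, was at 530 and 513 CPM in R+D tumours, against 789 and 647 CPM in DPD tumours (−0.46 ± 0.23). H2-DMb2, part of the peptide exchanger, was at 1.23 and 1.51 CPM in R+D tumours, against 1.93 and 2.67 CPM in DPD tumours; it has a close copy in H2-DMb1. The R+D libraries lay below the DPD libraries for all 4 genes.

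MHC class I genes, which present peptides to CD8 T cells, did not follow the interferon gamma list. Their median log2 fold change was 0.05, or −0.11 to 0.14 with 1 library left out, and 3 of 19 (15.8%) were apart on the higher side. B2m, the shared light chain, was at 1093 and 1469 CPM in R+D tumours and at 1699 and 1393 CPM in DPD tumours. Nlrc5, the activator of class I genes, was at 190 and 205 CPM in R+D tumours and at 104 and 189 CPM in DPD tumours. Tap2, a subunit of the peptide transporter, was at 71.0 and 81.1 CPM in R+D tumours and at 62.8 and 66.5 CPM in DPD tumours.

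Macrophage genes leaned to the lower side with MHC class II. Of 19 tested, 16 had a negative log2 fold change, 5 (26.3%) had both R+D libraries below both DPD libraries and 0 had both above, and the median was −0.20, or −0.26 without R+D replicate 2. The median was 0.04 without DPD replicate 1 and −0.39 without DPD replicate 2. Adgre1, the macrophage surface receptor F4/80, was at 19.8 and 17.1 CPM in R+D tumours, against 25.8 and 26.4 CPM in DPD tumours (−0.50 ± 0.20). Csf1r, the receptor of the macrophage growth factor CSF1, was at 63.8 and 55.7 CPM in R+D tumours, against 77.9 and 74.4 CPM in DPD tumours (−0.35 ± 0.18). Lyz2, lysozyme, was at 747 and 909 CPM in R+D tumours, against 1068 and 978 CPM in DPD tumours. Cd68, a lysosomal protein, was at 41.9 and 52.4 CPM in R+D tumours and at 75.3 and 52.3 CPM in DPD tumours, so its libraries overlapped.

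Dendritic cell genes gave no common direction, with 2 of 17 apart on the higher side and 3 on the lower. Xcr1 and Clec9a both mark the cross-presenting subset. Xcr1 was at 0.79 and 1.59 CPM in R+D tumours, against 0.349 and 0.589 CPM in DPD tumours, and Clec9a at 0.698 and 0.702 CPM in R+D tumours, against 0.864 and 1.26 CPM in DPD tumours. Zbtb46, a factor of conventional dendritic cells and endothelium, was at 16.1 and 11.9 CPM in R+D tumours and at 10.4 and 10.3 CPM in DPD tumours.

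Of 18 tested genes of anthracycline targets and handling, 1 (5.56%) was apart on the higher side and 3 (16.7%) on the lower. Top2a, topoisomerase II alpha, was at 833 and 847 CPM in R+D tumours and at 611 and 849 CPM in DPD tumours, and Top2b, topoisomerase II beta, at 168 and 121 CPM in R+D tumours and at 124 and 143 CPM in DPD tumours. Abcb1b, a P-glycoprotein gene that exports anthracyclines, was at 82.9 and 68.2 CPM in R+D tumours and at 69.5 and 87.7 CPM in DPD tumours. Nqo1, a quinone reductase, was at 9.99 and 10.3 CPM in R+D tumours, against 15.5 and 13.3 CPM in DPD tumours (−0.50 ± 0.22).

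Of 25 tested p53 targets, 3 (12%) were apart on the higher side and 2 (8%) on the lower, against 14.5% and 11.8% of all genes. Their median was −0.04. Cdkn1a, the p21 cell cycle inhibitor, was at 75.2 and 72.4 CPM in R+D tumours, against 76.3 and 87.1 CPM in DPD tumours (−0.15 ± 0.20). Mdm2, the ubiquitin ligase of p53, was at 45 and 45.8 CPM in R+D tumours, against 46.2 and 48.8 CPM in DPD tumours. Fas, the death receptor, was at 5.66 and 6.18 CPM in R+D tumours, against 3.69 and 3.64 CPM in DPD tumours (0.69 ± 0.28). Fas and Pidd1 are both p53 targets in textbooks, but Pidd1 is not in this list and was named for its small p. Both had their R+D libraries above their DPD libraries. Cdkn1a and Mdm2 had theirs below, but with log2 fold changes of −0.15 ± 0.20 and −0.07 ± 0.18, smaller than their SE.

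Cell cycle genes had 7 of 30 (23.3%) apart on the higher side and 3 on the lower, with a median of 0.03. Mki67, the proliferation marker Ki-67, was at 493 and 477 CPM in R+D tumours and at 286 and 454 CPM in DPD tumours, so most of its difference rested on DPD replicate 1. Of 23 apoptosis regulators, 3 were apart on the higher side and 2 on the lower. The pyroptosis pore genes Gsdme and Gsdmd had log2 fold changes of 0.03 ± 0.27 and 0.08 ± 0.21.

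Stress and metabolic genes leaned slightly to the lower side. Of 19 NRF2, glutathione and metallothionein genes, 6 (31.6%) were apart on the lower side and 0 on the higher, with a median of −0.18. That median was −0.03 without DPD replicate 1 and −0.30 without DPD replicate 2. Hmox1, haem oxygenase 1, was at 34.4 and 53.2 CPM in R+D tumours and at 72.4 and 50.2 CPM in DPD tumours. The metallothionein genes Mt1 and Mt2 had log2 fold changes of −0.26 ± 0.31 and −0.07 ± 0.32 with overlapping libraries. Of 21 ER stress genes, 5 (23.8%) were apart on the lower side, with a median of −0.14 that was −0.06 without DPD replicate 1, −0.08 without R+D replicate 1, −0.21 without R+D replicate 2 and −0.30 without DPD replicate 2. Among them, Hspa5, the chaperone BiP, was at 672 and 648 CPM in R+D tumours, against 805 and 770 CPM in DPD tumours (−0.25 ± 0.13). Of 24 oxidative phosphorylation genes, 6 (25%) were apart on the lower side, with a median of −0.15 that was 0.10 without DPD replicate 1. All 24 ribosomal protein genes had a negative log2 fold change, with 1 apart and a median of −0.18 that was 0.09 without DPD replicate 1.

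Cholesterol and fatty acid synthesis genes showed how 1 library can set a direction. Their median was −0.23, with 21 of 24 genes negative, but R+D replicate 1 was above both DPD libraries for 13 of them and the median was 0.10 without R+D replicate 2 and −0.70 without R+D replicate 1. The list summed to 4880 and 2980 CPM in R+D tumours, against 4530 and 4390 CPM in DPD tumours. Fdft1, squalene synthase, was at 108 and 67.1 CPM in R+D tumours and at 133 and 106 CPM in DPD tumours.

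In the stroma, 5 of 18 endothelial genes (27.8%) were apart on the lower side and 2, Gja4 and Gja5, on the higher. Flt1, the VEGF receptor 1, was at 18.7 and 13.9 CPM in R+D tumours, against 18.8 and 23.8 CPM in DPD tumours. Mcam, an adhesion molecule of vessels and pericytes, was at 19.3 and 19.6 CPM in R+D tumours, against 23.9 and 27.8 CPM in DPD tumours (−0.41 ± 0.18). Pecam1, the pan-endothelial adhesion molecule CD31, was at 24 and 27.9 CPM in R+D tumours and at 24.7 and 27.9 CPM in DPD tumours, so its libraries overlapped where those of Gja4 did not. Of 21 collagen genes, 3 were apart on the higher side and 4 on the lower. Col27a1, a fibrillar collagen of cartilage, was at 15.9 and 13.6 CPM in R+D tumours, against 7.04 and 9.88 CPM in DPD tumours (0.80 ± 0.28).

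The immediate early genes Egr3 and Ier3 lay apart in opposite orders. Egr3, a zinc finger factor, was at 12.6 and 12.4 CPM in R+D tumours, against 9 and 7.33 CPM in DPD tumours (0.62 ± 0.20). Ier3 was at 27.6 and 36 CPM in R+D tumours, against 49.3 and 50.1 CPM in DPD tumours (−0.64 ± 0.32). Haemoglobin genes split the DPD libraries: Hbb-bs was at 7.20 and 10.4 CPM in R+D tumours and at 41.2 and 7.60 CPM in DPD tumours, and Hba-a1 at 6.13 and 9.50 CPM in R+D tumours and at 37.0 and 7.80 CPM in DPD tumours. Their negative log2 fold changes, −1.47 ± 0.59 and −1.52 ± 0.57, became 0.21 and 0.00083 without DPD replicate 1. Both have near-identical copies.

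**Figure D4:**
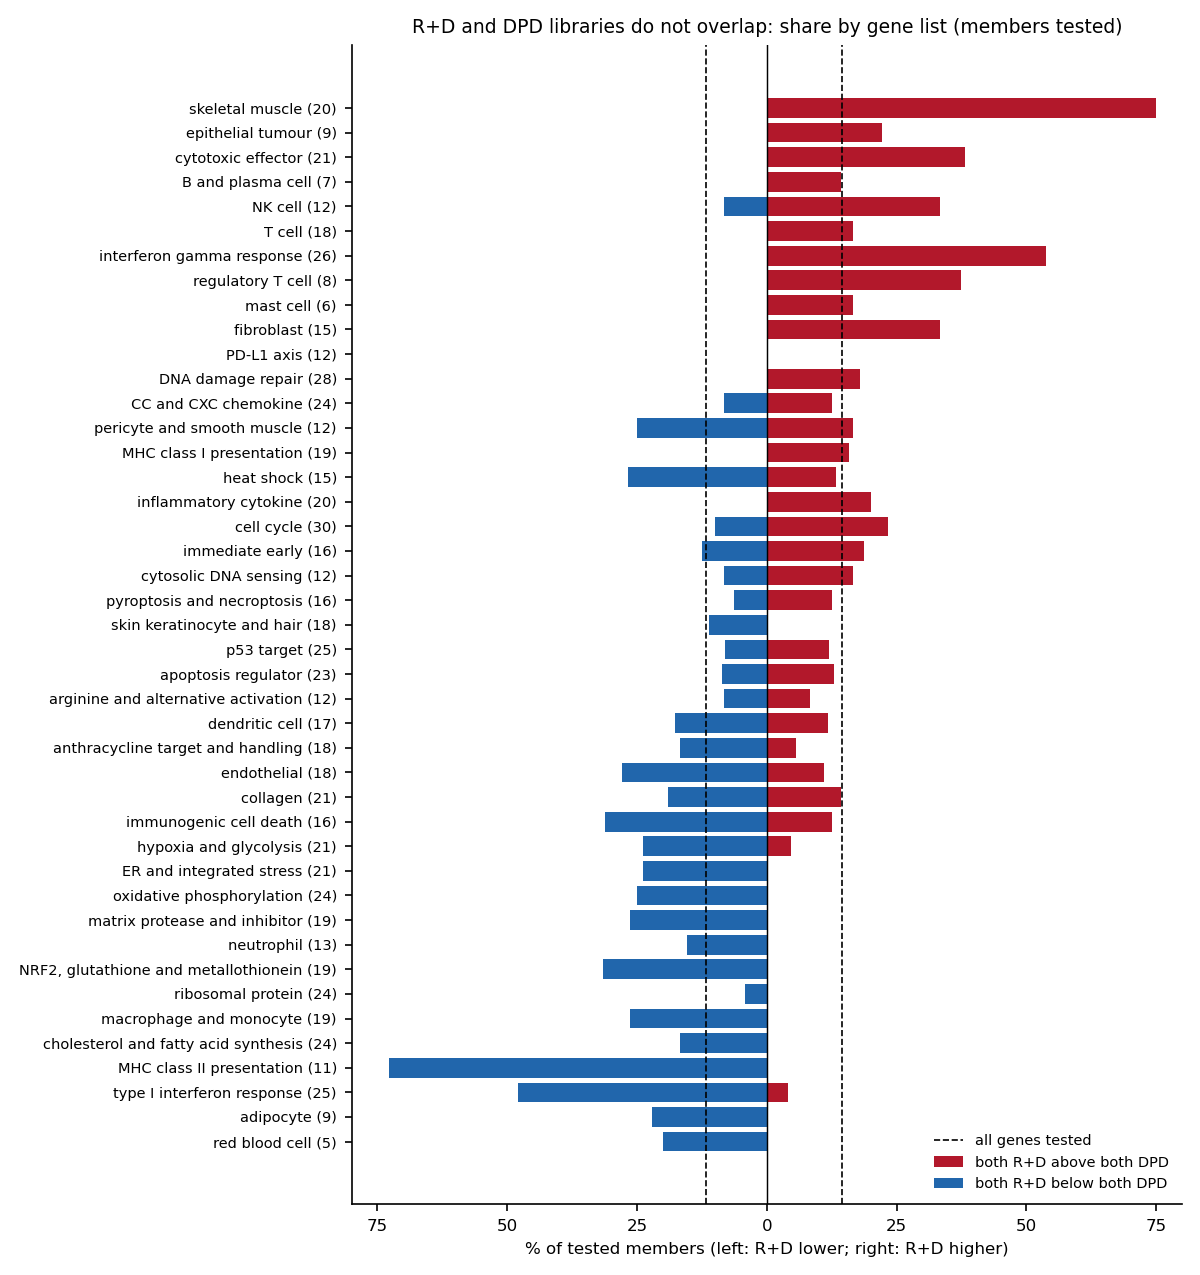
Percent of the tested members of each of 43 gene lists (number tested in parentheses) whose R+D libraries both lie above (right) or both below (left) the DPD libraries, ordered by median log2 fold change, with the shares among all genes as dashed lines (14.5% and 11.8%). Muscle (75%), interferon gamma (53.8%) and cytotoxic genes (38.1%) reach furthest to the right, and MHC class II (72.7%) and type I interferon genes (48%) to the left. Regulatory T cell (37.5%), NK cell (33.3%) and fibroblast genes (33.3%) come close to the cytotoxic share.

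The conjugate was also added without drug and with doxorubicin itself, and the same lists can be set beside each other because the 3 pairs share no library. The interferon gamma list had a median of 0.39 for R+D against DPD, 0.36 for R+X against DOX and 1.52 for RP against Ctrl. Its members were apart on the higher side for 14, 5 and 25 of 26 genes, where all genes gave 14.5%, 15.3% and 32.3%. The cytotoxic list had medians of 0.70, 0.26 and 1.28 in the same order of pairs. The type I list had medians of −0.48, −0.23 and 0.05, and the MHC class II list −0.46, 0.25 and −0.27. Macrophage genes had medians of −0.20, −0.15 and 0.28. The median of the interferon gamma list was thus positive in all 3 pairs, that of the type I list in 1 of them and that of the MHC class II list in 1.

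**Figure D5:**
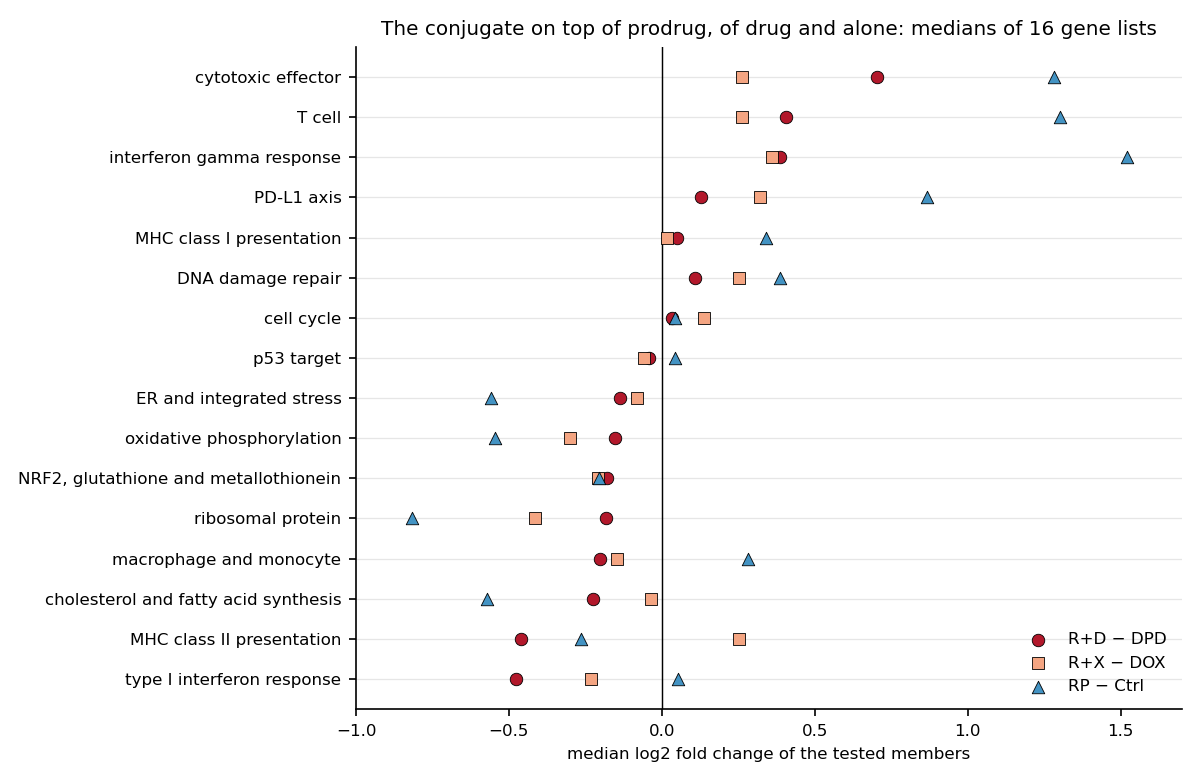
Median log2 fold change (horizontal axis) of the tested members of 16 gene lists for R+D minus DPD (circles), R+X minus DOX (squares) and RP minus Ctrl (triangles). Interferon gamma genes lie at 0.39, 0.36 and 1.52, and MHC class II genes at −0.46, 0.25 and −0.27.

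Of the 2825 genes with both R+D libraries above both DPD libraries, 1401 were also apart on the higher side in RP against Ctrl, which is 49.6% of the first list and 22.2% of the second, and 221 (7.82%) were apart the other way. With R+X against DOX, 553 were shared (19.6% of the first list and 18.5% of the second), and 254 (8.99%) were apart the other way. Of the 2308 genes on the lower side, 988 were shared with RP against Ctrl (42.8% and 18.6%), and 297 (12.9%) were apart the other way. With R+X against DOX, 318 were shared (13.8% and 12.1%), and nearly as many, 281 (12.2%), were apart the other way. In RP against Ctrl, 32.3% of all genes were apart on the higher side and 27.1% on the lower, and in R+X against DOX 15.3% and 13.5%. Muscle RNA was high in RP as well as in R+D replicate 2, and its part in this overlap was not tested. Log2 fold change had a Spearman correlation with transcript length of 0.10 across genes for R+D against DPD, 0.22 for R+X against DOX and 0.27 for RP against Ctrl (16252 genes, which are not independent replicates).

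The difference between pairs was tested gene by gene. For R+D against DPD less R+X against DOX, 0 genes (0%) passed by edgeR, 413 (2.12%) had an unadjusted p under 0.05, and DESeq2 called 3. For R+D against DPD less RP against Ctrl, 0 genes (0%) passed by edgeR, 871 (4.46%) had an unadjusted p under 0.05, of which 674 (3.45%) were lower, and DESeq2 called 12. Among the 12 DESeq2 calls, chosen here after their values were seen, were F13a1, the A chain of coagulation factor XIII, with a log2 difference of −1.96 (adjusted p = 0.000606), and Slfn4, an interferon-induced gene of myeloid cells, with −3.73 (adjusted p = 9e-04).

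Genes of small p in these differences are given as values. Chil3, a chitinase-like protein of alternatively activated macrophages, was at 5.51 and 8.26 CPM in R+D tumours, against 11.8 and 16.5 CPM in DPD tumours, and at 22.3 and 71.8 CPM in R+X tumours, against 14.6 and 6.76 CPM in DOX tumours. Itgb2, the beta chain of the leukocyte integrins, was at 60.4 and 53.5 CPM in R+D tumours, against 72.0 and 85.5 CPM in DPD tumours, and at 67.6 and 74.1 CPM in R+X tumours, against 54.0 and 46.0 CPM in DOX tumours. In both genes the conjugate libraries were below the drug libraries with the prodrug and above them with doxorubicin. Mylpf, a myosin light chain of fast muscle, was at 1.3 and 12.3 CPM in R+D tumours, against 0.698 and 0.275 CPM in DPD tumours.

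Slc11a1 was at 16.1 and 16.5 CPM in RP tumours, against 13.1 and 12.2 CPM in Ctrl tumours, the reverse of its order in R+D and DPD tumours. Ms4a4d, a membrane protein of myeloid and endothelial cells, was at 2.81 and 2.21 CPM in R+D tumours, against 4.69 and 4.79 CPM in DPD tumours, and at 6.99 and 7.66 CPM in RP tumours, against 3.61 and 3.41 CPM in Ctrl tumours. Lgals3bp, a secreted galectin-binding glycoprotein that interferons induce, was at 73.6 and 78.5 CPM in R+D tumours, against 101 and 99.6 CPM in DPD tumours, and at 116 and 104 CPM in RP tumours, against 86.1 and 73.9 CPM in Ctrl tumours. Egr3 ran the other way, at 8.45 and 9.91 CPM in RP tumours, against 11.5 and 14.7 CPM in Ctrl tumours. The adjusted p of each of these differences was 0.84 or higher by edgeR. DESeq2 called the difference of Chil3 from R+X against DOX (log2 difference −3.18, adjusted p = 0.0332) and that of Lgals3bp from RP against Ctrl (−0.855, adjusted p = 0.0493).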

How the data were processed

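The labels' protocols name TRIzol extraction of total RNA and NEBNext Ultra libraries. The submitters' processing notes list HISAT2 2.1.0, StringTie 1.3.5, DESeq2 and the build GRCm38, with no roles. Annotation and use of strand: not given in the sources used here. Reads of a gene and of an overlapping or antisense neighbour therefore cannot be separated. The authors deposited raw whole-number counts per gene, not normalised (43698 rows, 42803 names), and each of the 12 per-library files equals its column of the table. Groups follow the agent label. The code R+X was taken to mean conjugate plus DOX, since X is a letter of DOX, and R+D conjugate plus DPD; were these swapped, so would be their values. DPD was taken to be the prodrug that the series title mentions. Replicates are numbered in order of listing and pair nothing.

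One edgeR 4.0.16 quasi-likelihood fit (R 4.3.3, TMM, filterByExpr) held all 12 libraries in 6 groups, with 6 residual degrees of freedom, 19525 genes tested and a biological coefficient of variation of 0.257. Benjamini-Hochberg adjustment ran over all genes, with a threshold of 0.05. Total counts were 46547114 to 56462259 per library. Alternatives were DESeq2 1.42.0, limma-voom (limma 3.58.1), RLE scaling, no filter, only the groups compared, muscle or skin level as covariate, and leaving out each library. The fits were tested on simulated data.

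Named genes are the 10 of smallest p a side with libraries that do not overlap and a mean of at least 1 CPM, the 4 of smallest p of a discussed list, a panel of drug and immune genes, and up to 5 a side for differences between pairs. Predicted genes and clone names were counted and not named, except where said, and a few items are not reported here. The members and lists were chosen with earlier results of these data known, and 35987 of the names matched RefSeq, which gave coordinates and promoters.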

Additional observations from a re-analysis of the deposited data

How the results depend on the processing

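No paired analysis was possible because the labels number no replicates. The count of 0 genes called between R+D and DPD tumours was 0 with RLE scaling, without the filter, with limma-voom and with either covariate, 3 with only the groups compared, and 6 with DESeq2, and leaving out 1 library in turn gave 0 to 1. R+X against DOX gave 0, with 1 under DESeq2 and 0 to 4 over leave-one-out fits. RP against Ctrl gave 3, with 14 without the filter, 505 with only the groups compared, 1124 under DESeq2 and 0 to 48 over leave-one-out fits. The difference of R+D against DPD from R+X against DOX gave 0, with 3 under DESeq2 and 0 to 1 over leave-one-out fits, and that from RP against Ctrl gave 0, with 12 under DESeq2 and 0 to 1. Leaving out libraries of other groups, list values without R+D replicate 2 and medians with the length trend removed were chosen after seeing the data. A fit that leaves 1 library in a group assumes that it varies like the others. Direction for the 96 genes given with values was kept under RLE, the skin covariate and no filter, and under DESeq2 and only the groups compared except for Lgals4 (−0.0053 and −0.0073).

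The muscle covariate turned 14 of these genes: Atp2a1 (−0.40), Cd8a (−0.10), Cd4 (−0.98), Cd3g (−0.046), Tnfrsf4 (−0.073), Pdcd1 (−0.044), Lag3 (−0.27), Tap2 (−0.016), Abcb1b (0.10), Mdm2 (0.067), Gsdmd (−0.061), Gja5 (−0.27), Epcam (−1.61) and Lgals4 (−0.18). The muscle covariate also moved the medians of 24 of 43 lists beyond their spread. Among these, T cell (−0.20) and MHC class I genes (−0.22) changed sign, and cytotoxic (0.12) and MHC class II genes (−0.77) kept it. The medians of the interferon gamma (0.29), type I interferon (−0.23) and macrophage (−0.36) lists moved by no more than their spread. The type I median was −0.48 without the covariate. Levels under 1 CPM rest on few counts. Limma-voom turned Cxcl9 (−0.074), Epcam (−0.16) and Lgals4 (−0.0064). The cause was not tested.
Leaving out 1 of the 4 libraries turned the log2 fold change of these genes, over these ranges: Cd274 −0.044 to 0.27, Top2a −0.016 to 0.44, Mt1 −0.66 to 0.059, Mt2 −0.49 to 0.22, Hbb-bs −2.24 to 0.21, Hba-a1 −2.26 to 0.00083, Foxp3 −1.05 to 0.31, Abcb1b −0.22 to 0.11, Gsdme −0.23 to 0.33, Cxcl9 −0.71 to 0.52, Top2b −0.16 to 0.33, Cd8a −0.0037 to 0.83, Cd4 −0.40 to 0.85, Pdcd1 −0.015 to 0.31, Lag3 −0.18 to 0.76, Cdh1 −0.44 to 0.022, Epcam −1.93 to 1.59 and Lgals4 −0.15 to 0.11.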

Other observations

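Matrix protease, immunogenic cell death and hypoxia genes leaned to the lower side. Matrix protease genes had 5 of 19 (26.3%) apart on the lower side and 0 on the higher, among them Mmp2, gelatinase A, and R+D replicate 1 was below both DPD libraries for 12 of the 19. Their median was −0.16, and −0.08 to −0.24 with 1 library left out. Immunogenic cell death genes had 5 of 16 (31.2%) apart on the lower side and 2 on the higher, with a median of −0.12, and −0.05 to −0.20 with 1 library left out. Hypoxia and glycolysis genes had 5 of 21 (23.8%) apart on the lower side and 1 on the higher, with R+D replicate 1 below both DPD libraries for 14 of them and a median of −0.13, and −0.05 to −0.22 with 1 library left out. All genes gave 11.8% on the lower side. NK cell genes had 4 of 12 (33.3%) apart on the higher side and 1 (8.33%) on the lower, against 14.5% and 11.8% of all genes. Their median was 0.41, which was 0.07 without R+D replicate 2 and 0.09 without DPD replicate 1. The NK cell list summed to 55.1 and 60.1 CPM in R+D tumours and to 60.7 and 59.4 CPM in DPD tumours. Plasma cell RNA differed between replicates: Jchain, the joining chain of secreted antibodies, was at 4.46 and 15.5 CPM in R+D tumours and at 1.53 and 10.7 CPM in DPD tumours. Fibroblast genes had 5 of 15 (33.3%) apart on the higher side, against 14.5% of all genes. Their median was 0.14, which was −0.04 without R+D replicate 2. The list was led by Lum, the matrix proteoglycan lumican, at 6.35 and 17.8 CPM in R+D tumours, against 4.78 and 6.33 CPM in DPD tumours. DNA repair genes had 25 of 28 positive, but only 5 (17.9%) were apart on the higher side, close to the 14.5% of all genes. Their median of 0.11 was −0.02 without DPD replicate 1. Hair keratin genes split the R+D libraries: Krt71 was at 0.624 and 113 CPM in R+D tumours and at 2.76 and 0 CPM in DPD tumours.

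Plpp6 and 4430402I18Rik overlap on chromosome 19 in RefSeq and were chosen after their values were seen. Plpp6 had 591 and 579 counts in the R+D libraries and 0 in both DPD libraries. 4430402I18Rik was at 0.771 and 0.289 CPM in R+D tumours, against 12.9 and 14.7 CPM in DPD tumours. Their sum was 11.6 and 12.3 CPM in R+D tumours and 12.9 and 14.7 CPM in DPD tumours, and 12.1 to 14.1 CPM in the other 8 libraries. Each library held nearly all of the sum under 1 of the 2 names, 4430402I18Rik in both RP libraries, Plpp6 in both DOX libraries, and either one in the Ctrl and R+X groups. DESeq2 called Plpp6, and so did edgeR with only the groups compared. 4933428G20Rik, the gene of the smallest p (2.97e-05, edgeR adjusted p = 0.581), was called by DESeq2 (adjusted p = 2.35e-09), by edgeR with only the groups compared (adjusted p = 0.0268) and by edgeR without DOX replicate 1 (0.0105) or DOX replicate 2 (0.011). It was at 8.74 and 7.48 CPM in R+D tumours, against 0.533 and 0.688 CPM in DPD tumours. Its RP libraries held 6.23 and 6.57 CPM and its Ctrl libraries 5.02 and 2.6 CPM. Its R+X libraries held 8.2 and 7.33 CPM and its DOX libraries 1.85 and 6.11 CPM. The DPD libraries were thus the lowest of the series, and R+X was near R+D. The gene lies within Arhgap23, which was at 151 and 147 CPM in R+D tumours and at 147 and 161 CPM in DPD tumours. DESeq2 also called Krt6b and Cstdc5, which had 0 counts in both R+D libraries and in DPD replicate 2, so DPD replicate 1 alone carried the difference.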
